A study of Mus musculus with 9 samples.

Results

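The small leucine-rich proteoglycans (SLRPs) examined here are 10 genes taken by name, Lum, Dcn, Bgn, Fmod, Ogn, Prelp, Aspn, Omd, Podn and Ecm2, out of 32285 gene identifiers in each count table. All 10 were found by their Ensembl identifiers and all 10 passed the filter on low counts, Omd only through its undifferentiated libraries. RNAseq was performed on 9 libraries of primary stromal vascular fraction (SVF) cells, the non-adipocyte cells of adipose tissue, from subcutaneous white fat of wild-type (WT) neonatal mice that were 4 to 6 days old. There were 3 groups of 3 libraries: undifferentiated cells, vehicle (6 days of differentiation toward adipocytes with DMSO alone) and MIZ (the same 6 days with mizoribine at 25 µM). Both differentiated groups received the same hormonal cocktail, first insulin, dexamethasone and IBMX for 2 days and then insulin, thiazolidinediones and T3. MIZ blocks inosine monophosphate dehydrogenase and with it the synthesis of guanine nucleotides. The cultures were not sorted and so hold several cell types, and the labels call all 9 libraries primary adipocytes although Adipoq, the adipocyte hormone adiponectin, had 0 to 0.0225 CPM (read counts scaled to the size of the library) in the undifferentiated libraries, 636 to 677 in vehicle and 46.2 to 75.0 in MIZ. In such bulk RNA, fewer cells of a type and less RNA per cell cannot be told apart.

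SLRPs are secreted proteins built of leucine-rich repeats that bind collagen fibrils in the extracellular matrix and limit or order their growth. Several carry chains of chondroitin or dermatan sulfate (decorin and biglycan) or of keratan sulfate (lumican and fibromodulin), and they also hold growth factors such as TGFβ near the cell. In adipose tissue they are products of fibroblast-like stromal cells and preadipocytes more than of lipid-filled adipocytes. By protein sequence Dcn (decorin), Bgn (biglycan), Aspn (asporin) and the related Ecm2 belong to class I, Fmod (fibromodulin), Lum (lumican), Prelp and Omd (osteomodulin) to class II, Ogn (osteoglycin, or mimecan) to class III and Podn (podocan) to class V.

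Most of the members sit beside another one in the mouse genome (GRCm38). On chromosome 13, Ecm2 (49504810 to 49532789), Aspn (49544443 to 49567565), Omd (49582462 to 49592822) and Ogn (49608046 to 49624501) lie in a row on the plus strand, with gaps of 11.7, 14.9 and 15.2 kb. Dcn (97479609 to 97518143) and Lum (97565128 to 97572703) are 47.0 kb apart on the plus strand of chromosome 10. Prelp (133910304 to 133921414, minus strand) and Fmod (134037254 to 134048277, plus strand) are 115.8 kb apart on chromosome 1, with the lincRNA gene Gm1627 between them. Podn (108014791 to 108096445, minus strand) is on chromosome 4 and Bgn (73483602 to 73495933, plus strand) on chromosome X. The row on chromosome 13 lies inside Cenpp, a centromere protein gene on the opposite strand, which shares 7 exon bases with Aspn and 0 with the other 3. Prelp shares 350 exon bases with the antisense gene Gm15851, which had 13 counts in all undifferentiated, 2 in all vehicle and 10 in all MIZ libraries. Podn shares 0 exon bases with Scp2, a sterol carrier gene on its own strand.

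The 250 bases before the start of transcription are printed for the 4 chromosome 13 neighbours, whose RNA moved in different ways under MIZ, and for Bgn, the most abundant member (RefSeq, GRCm38.p6, plus strand, 5′ to 3′). They span chr13:49504560-49504809 for Ecm2, chr13:49544193-49544442 for Aspn, chr13:49582212-49582461 for Omd, chr13:49607765-49608014 for Ogn and chrX:73483351-73483600 for Bgn. Capitals mark matches, on either strand, to the TATA box (TATAAA), the CAAT box (CCAAT), the GC box (GGGCGG), the TEAD motif (CATTCC), the AP-1 motif (TGANTCA) or the CArG box of serum response factor.
Ecm2: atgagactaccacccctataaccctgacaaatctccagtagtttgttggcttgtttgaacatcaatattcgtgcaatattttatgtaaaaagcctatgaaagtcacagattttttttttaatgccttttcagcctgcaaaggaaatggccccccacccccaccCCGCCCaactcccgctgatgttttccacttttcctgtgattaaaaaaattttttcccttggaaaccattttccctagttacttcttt
Aspn: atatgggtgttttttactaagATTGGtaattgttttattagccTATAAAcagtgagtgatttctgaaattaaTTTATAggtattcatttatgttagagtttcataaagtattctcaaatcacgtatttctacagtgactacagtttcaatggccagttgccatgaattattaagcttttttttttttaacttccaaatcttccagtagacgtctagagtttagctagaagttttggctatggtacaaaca
Omd: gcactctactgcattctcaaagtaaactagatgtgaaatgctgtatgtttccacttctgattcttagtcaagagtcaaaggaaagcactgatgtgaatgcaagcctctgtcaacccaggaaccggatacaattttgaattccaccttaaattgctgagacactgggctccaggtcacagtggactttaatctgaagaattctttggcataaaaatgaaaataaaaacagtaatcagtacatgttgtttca
Ogn: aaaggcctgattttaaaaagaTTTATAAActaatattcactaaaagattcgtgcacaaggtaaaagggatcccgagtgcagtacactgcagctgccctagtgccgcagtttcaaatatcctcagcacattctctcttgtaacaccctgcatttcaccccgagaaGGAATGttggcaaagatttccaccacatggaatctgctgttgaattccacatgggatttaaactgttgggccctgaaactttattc
Bgn: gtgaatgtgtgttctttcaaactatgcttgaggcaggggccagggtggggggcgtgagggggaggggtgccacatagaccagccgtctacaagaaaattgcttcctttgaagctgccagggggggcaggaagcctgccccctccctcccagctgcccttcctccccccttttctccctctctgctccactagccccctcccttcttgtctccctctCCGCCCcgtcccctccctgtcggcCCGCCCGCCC
The Ogn window holds TATAAA on both strands in overlapping positions (from -229 to -222, counted back from the start) and CATTCC on the other strand at -86 to -81. The Aspn window holds TATAAA at -207 to -202 and, on the other strand, at -178 to -173, and CCAAT on the other strand at -229 to -225. The Ecm2 window holds 1 GGGCGG, on the other strand at -87 to -82, the Bgn window 3 on the other strand between -34 and -1, of which the last 2 overlap, and none of the 6 motifs was matched in the Omd window. Of all 32851 windows of this length, 12.4% hold TATAAA, 33.8% CCAAT, 32.7% GGGCGG, 12.6% CATTCC, 6.75% TGANTCA and 1.47% the CArG box. The base composition differed more: G and C made up 30.0% of the Aspn, 38.4% of the Omd, 40.0% of the Ecm2 and 42.0% of the Ogn window, below the median window (52.4%), and 64.4% of the Bgn window. Windows were on file for 8 members, and among the others Fmod had 51.2%, Prelp 55.6% and Podn, with 2 starts, 64.0% and 78.0%. These are descriptions of letters and were not set against the RNA levels.

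In undifferentiated cells Bgn led the 10 members. To compare genes, CPM was divided by the length of the annotated exons in kb (RPKM). On this scale Bgn stood at 823 ± 29.3 RPKM (SD, n = 3), Dcn at 100 ± 5.93, Aspn at 80.2 ± 2.97, Prelp at 75.1 ± 3.18, Podn at 53.8 ± 2.55, Fmod at 51.3 ± 1.73, Ogn at 34.3 ± 0.61 and Lum at 33.2 ± 1.23. Omd, known from bone, and Ecm2 were near the bottom of the measurable range, with 0.67 ± 0.0483 and 0.387 ± 0.0685 RPKM. The libraries of neighbouring genes in this order did not overlap, except those of Podn and Fmod and those of Ogn and Lum. In vehicle-treated cells Bgn still led with 187 ± 29.1 RPKM, ahead of Dcn (35.2 ± 11.3) and Prelp (31.0 ± 0.978), whose libraries overlapped. Lum (6.11 ± 0.798), Podn (4.98 ± 0.423), Aspn (4.64 ± 2.0) and Fmod (4.07 ± 1.45) each overlapped the next in the order, and Fmod overlapped Ogn (2.15 ± 0.453). With MIZ, Bgn reached 1114 ± 32.5 RPKM, followed by Prelp (62.5 ± 13.6) and Dcn (45.2 ± 7.09), which overlapped, then Podn (18.4 ± 1.51), Aspn (11.9 ± 2.78) and Fmod (9.76 ± 3.08), the last 2 overlapping, while Lum (1.02 ± 0.0482) and Ogn (0.296 ± 0.00414) ranked below them.

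**Figure D1:**
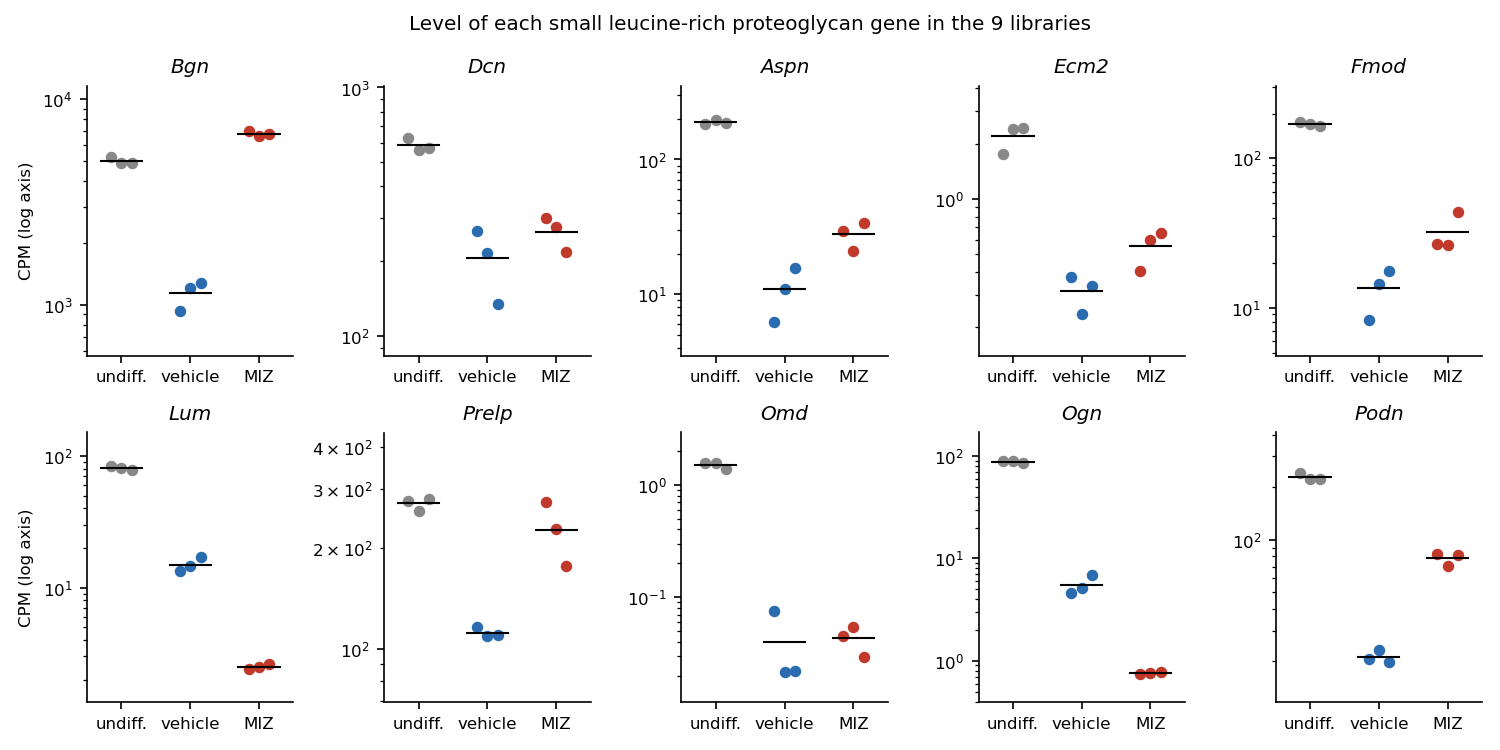
CPM of each of the 10 genes in the 9 libraries, on a log axis with its own range in each panel; points are libraries and lines are means of 3 libraries. In all 10 panels the undifferentiated libraries lie above the vehicle libraries, and with MIZ Bgn lies above both groups while Lum and Ogn lie below both.

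The 10 members were all lower after differentiation with vehicle. Each of the 10 members was lower in vehicle than in undifferentiated cells (edgeR's quasi-likelihood test, Benjamini-Hochberg adjusted p under 0.05), where 41.5% of the 17173 genes tested were lower and 36.2% higher. Omd passed the filter on low counts only through its undifferentiated libraries, so its call is no separate support for a fall. For each of the 10, the vehicle libraries lay below the undifferentiated ones with no overlap, as they did for 43.4% of all genes tested. The median log2 fold change of the 10 was -3.13, and that of all genes tested was -0.08.

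Among class I, Bgn, whose protein binds collagen and stimulates toll-like receptors, had 5225, 4911 and 4920 CPM in the undifferentiated libraries and 938, 1208 and 1274 in the vehicle libraries, a log2 fold change of -2.14 (SE 0.104, edgeR adjusted p = 7.13e-09). Dcn, the prototype of the family and a TGFβ-binding protein, went from 626, 561 and 572 CPM to 266, 216 and 135, a smaller fall (log2 fold change -1.51, SE 0.202, edgeR adjusted p = 3.82e-05). Vehicle replicate 1 was the lowest of its group for Bgn and the highest for Dcn. Aspn, which competes with Dcn for collagen, went from 184, 197 and 186 CPM to 6.19, 10.9 and 15.6, which was 16.8-fold lower (log2 fold change -4.07, SE 0.259). The vehicle libraries spread over 1.34 log2 units for Aspn and 0.98 for Dcn, against 0.1 and 0.16 in undifferentiated cells. Ecm2 went from 1.75, 2.4 and 2.44 CPM to 0.375, 0.236 and 0.334, that is from 327 counts in 3 libraries to 36 (log2 fold change -2.83, SE 0.258).

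Class II fell by very unequal amounts. Prelp, which ties basement membranes to collagen, had 276, 258 and 280 CPM before and 116, 109 and 110 after differentiation with vehicle, the smallest fall of the 10 members (log2 fold change -1.28, SE 0.124, edgeR adjusted p = 2.64e-06). Its neighbour Fmod, a regulator of collagen crosslinking, went from 175, 171 and 164 CPM to 8.29, 14.4 and 17.7 and was 12.3-fold lower (log2 fold change -3.63, SE 0.252). Lum, which spaces fibrils in the cornea and skin, went from 84.3, 81.4 and 78.3 CPM to 13.3, 14.5 and 17.1 (log2 fold change -2.43, SE 0.0817). Omd had 220 counts in the 3 undifferentiated libraries and 2, 1 and 1 counts in the vehicle libraries. Its fitted log2 fold change of -5.35 (SE 0.347) therefore rests on 4 counts on the vehicle side.

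Of the other classes, Ogn, a regulator of collagen fibril size, went from 88.8, 89.2 and 86.3 CPM to 4.61, 5.11 and 6.83 and was 15.8-fold lower (log2 fold change -3.98, SE 0.108). Podn, known to restrain growth of smooth muscle cells, went from 242, 224 and 223 CPM to 20.6, 23.3 and 19.8 (log2 fold change -3.43, SE 0.0808, edgeR adjusted p = 2.56e-11). The spread within either group was small for both genes beside these differences.

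MIZ during differentiation split the 10 members. Against vehicle, 6 members were higher with MIZ (Bgn, Podn, Aspn, Fmod, Prelp and Ecm2), 2 were lower (Lum and Ogn), and 2 did not pass the test (Dcn and Omd). Of all genes tested 35.9% were higher and 35.1% lower. The median log2 fold change was 0.92 for the members and 0.02 for all genes tested.

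Bgn rose from 938, 1208 and 1274 CPM with vehicle to 6999, 6603 and 6779 with MIZ, which was 5.96-fold higher (log2 fold change 2.57, SE 0.106, edgeR adjusted p = 2.68e-09). Podn rose 3.68-fold, from 19.8 to 23.3 CPM with vehicle to 82.3, 70.9 and 81.9 with MIZ (SE 0.078 on a log2 fold change of 1.88). The MIZ libraries of Bgn spread over 0.08 and those of Podn over 0.22 log2 units, so both rises were far larger than the spread within groups. Prelp had 274, 228 and 176 CPM with MIZ and was 2.02-fold higher than with vehicle (log2 fold change 1.02, SE 0.124, edgeR adjusted p = 2.3e-05).

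Aspn and Fmod behaved alike although they lie on different chromosomes. Aspn had 29.3, 21 and 33.9 CPM with MIZ against 6.19, 10.9 and 15.6 with vehicle (log2 fold change 1.32, SE 0.251, edgeR adjusted p = 0.000673). Fmod had 26.7, 26.1 and 44.0 CPM with MIZ against 8.29, 14.4 and 17.7 (log2 fold change 1.23, SE 0.246, edgeR adjusted p = 0.000975). For both genes the MIZ libraries lay above the vehicle libraries with no overlap, as they did for 36.8% of all genes tested. In both, vehicle replicate 1 was lowest and MIZ replicate 3 highest. Over the 9 libraries, the root mean square difference of their centred log2 CPM was 0.25, the smallest between any 2 members. Without vehicle replicate 1 the log2 fold change was 1.06 for Aspn and 0.99 for Fmod, both still past the threshold.

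Lum and Ogn moved the other way. Lum had 2.4, 2.47 and 2.63 CPM with MIZ against 13.3, 14.5 and 17.1 with vehicle, which was 6.02-fold lower (log2 fold change -2.59, SE 0.103, edgeR adjusted p = 2.07e-09). Ogn had 0.747, 0.76 and 0.769 CPM with MIZ against 4.61, 5.11 and 6.83 and was 7.35-fold lower (log2 fold change -2.88, SE 0.165, edgeR adjusted p = 4.11e-08). The 3 MIZ libraries agreed within 0.13 log2 units for Lum and 0.04 for Ogn, and Ogn with MIZ rests on 87 counts over the 3 libraries. Their fold changes ranged from -2.68 to -2.45 for Lum and from -2.99 to -2.7 for Ogn over all alternative settings tried.

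For the remaining 3 members the comparison of MIZ with vehicle was weak. Dcn had 298, 275 and 218 CPM with MIZ against 266, 216 and 135 with vehicle, and the groups overlapped (log2 fold change 0.36, 95% interval from -0.13 to 0.85, edgeR adjusted p = 0.127). The value moved with the libraries left out, to 0.57 without vehicle replicate 1, the shallowest library (edgeR adjusted p = 0.00808), 0.12 without vehicle replicate 3 (edgeR adjusted p = 0.413) and 0.26 without MIZ replicate 1 (edgeR adjusted p = 0.323). With all libraries kept it passed when scaled by library totals alone (0.5, edgeR adjusted p = 0.0409) and with a block for replicate number (0.39, edgeR adjusted p = 0.0316). Ecm2 had 0.408, 0.597 and 0.65 CPM with MIZ against 0.375, 0.236 and 0.334, a total of 62 against 36 counts (log2 fold change 0.82, SE 0.312, edgeR adjusted p = 0.0354). Its call was lost when vehicle replicate 2 (adjusted p = 0.141), vehicle replicate 3 (0.0615), MIZ replicate 2 (0.0907) or MIZ replicate 3 (0.111) was left out of the edgeR fit. Omd had 5 counts with MIZ and 4 with vehicle, and a difference was not detectable at this depth (log2 fold change 0.33, 95% interval from -1.35 to 2.01, edgeR adjusted p = 0.742).

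Compared with undifferentiated cells, MIZ-treated cells had 1 member higher, 8 lower and 1 that did not pass, where 33.7% of all genes tested were higher and 33.3% lower. The 8 include Omd, which passed the filter on low counts only through its undifferentiated libraries. The median log2 fold change of the members was -2.21 and that of all genes tested 0.00. The MIZ libraries here are the same as in the comparison with vehicle, so the 2 sets of values are given side by side and not as separate evidence. Bgn was the one that was higher, 6999, 6603 and 6779 CPM with MIZ against 5225, 4911 and 4920 in undifferentiated cells (log2 fold change 0.44, SE 0.0997, edgeR adjusted p = 0.00257). Prelp, at 274, 228 and 176 CPM against 276, 258 and 280, did not pass (log2 fold change -0.26, 95% interval from -0.56 to 0.03, edgeR adjusted p = 0.0774), although it did without MIZ replicate 1 (log2 fold change -0.43, edgeR adjusted p = 0.00319). Dcn (log2 fold change -1.15, SE 0.2), Podn (-1.55, SE 0.0736), Ecm2 (-2.01, SE 0.235), Fmod (-2.4, SE 0.235) and Aspn (-2.75, SE 0.239) were lower with MIZ than in undifferentiated cells. Lum was 32.6-fold and Ogn 116-fold lower (log2 fold changes -5.03, SE 0.1, and -6.86, SE 0.141), and Omd, with 5 counts on the MIZ side, had a log2 fold change of -5.02 (SE 0.333).

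**Figure D2:**
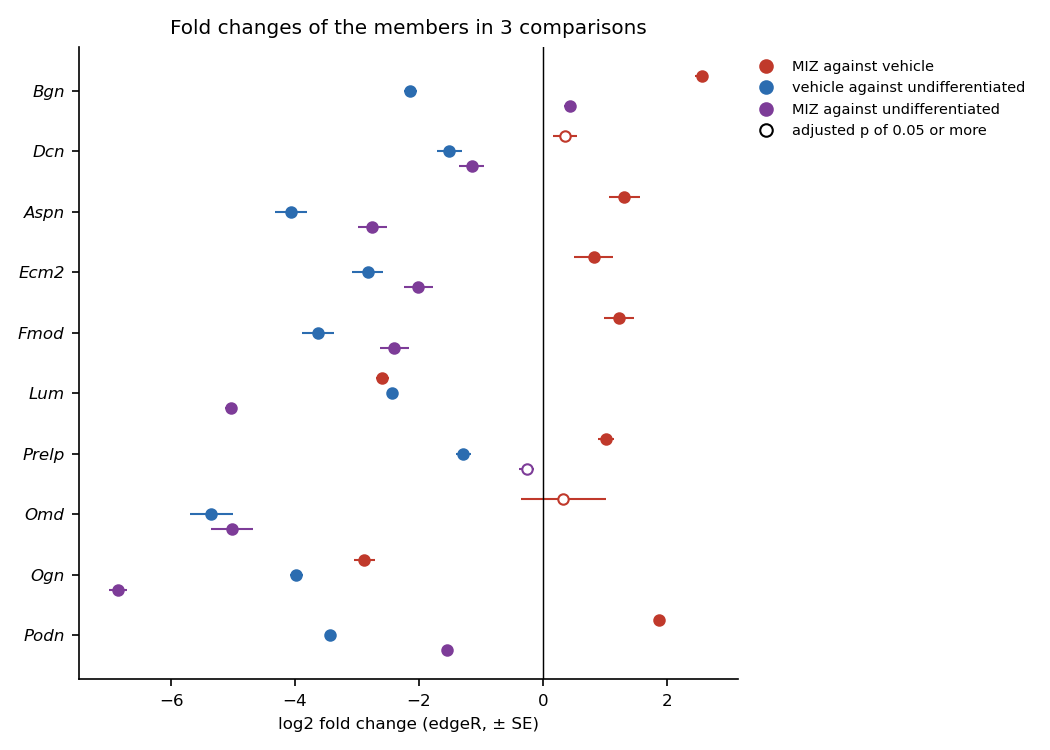
Log2 fold changes of the 10 genes with the standard error derived from edgeR's test, in the comparisons of MIZ with vehicle (red), vehicle with undifferentiated cells (blue) and MIZ with undifferentiated cells (purple). Open symbols did not pass an adjusted p of 0.05. All blue points lie to the left of 0, and the red points of Lum (-2.59) and Ogn (-2.88) stand apart from the other 8, which lie between 0.33 and 2.57.

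The summed level of the 10 members in MIZ-treated cells was close to that of undifferentiated cells, while its make-up differed. Summed over the 10 genes, the undifferentiated libraries had 6904, 6497 and 6513 CPM, the vehicle libraries 1374, 1602 and 1596, and the MIZ libraries 7713, 7228 and 7337. The difference on the log2 scale was 2.29 between MIZ and vehicle, -2.13 between vehicle and undifferentiated cells and 0.16 between MIZ and undifferentiated cells, each with no overlap between groups and an exact two-sided permutation p = 0.1, the smallest that 3 against 3 libraries can give. Bgn carried most of this sum. Without Bgn the sums were 1680, 1586 and 1593 CPM in undifferentiated, 435, 394 and 323 in vehicle and 714, 625 and 558 in MIZ libraries, with differences of 0.72 between MIZ and vehicle, -2.09 between vehicle and undifferentiated cells and -1.36 between MIZ and undifferentiated cells (exact permutation p = 0.1 each). Per length, Bgn made up 65.7% ± 0.265 of the summed RPKM before differentiation, 67.7% ± 5.32 with vehicle and 88.2% ± 0.994 with MIZ (SD, n = 3). The share of Dcn was 8.02% ± 0.224 in undifferentiated cells and 3.57% ± 0.501 with MIZ, and in the vehicle libraries it was 18.3%, 12.9% and 8.0%. Prelp held 11.3% ± 1.36 with vehicle against 6.0% ± 0.265 in undifferentiated cells and 4.94% ± 0.943 with MIZ. Lum and Ogn together with Fmod and Aspn had shares of 2.65%, 2.74%, 4.1% and 6.41% in undifferentiated cells, and 0.081%, 0.0234%, 0.775% and 0.942% with MIZ.

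**Figure D3:**
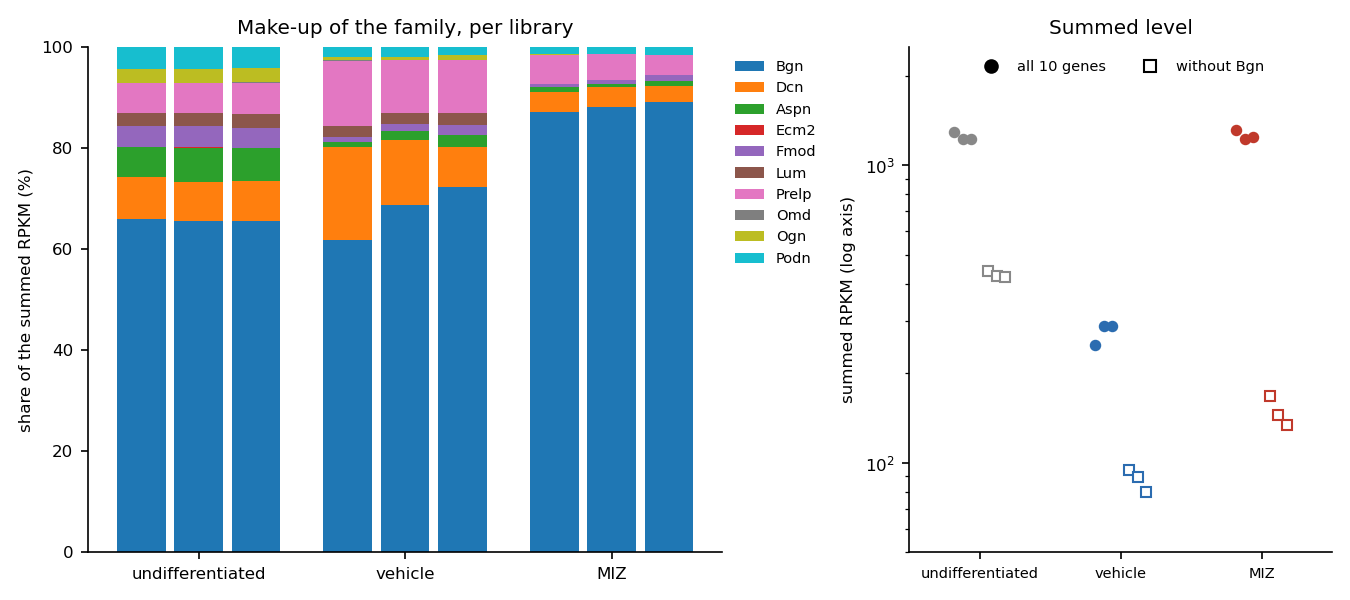
Left, the share of each gene in the summed RPKM of the 10 genes, as 1 stacked bar per library; right, the summed RPKM of each library on a log axis, for all 10 genes (filled circles) and without Bgn (open squares). With all genes the undifferentiated and MIZ libraries lie near 1252 and 1263 RPKM on average, and without Bgn they lie near 430 and 149.

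Neighbours on a chromosome differed in their course. The log2 ratio of Dcn to Lum CPM, which removes the library size, was 2.89, 2.79 and 2.87 in undifferentiated, 4.32, 3.9 and 2.98 in vehicle and 6.96, 6.8 and 6.37 in MIZ libraries. It was 2.98 higher with MIZ than with vehicle, with no overlap between the groups (exact permutation p = 0.1, adjusted p = 0.15 over the 15 tests of 5 pairs in 3 comparisons; a smaller p is not possible with 3 against 3). The log2 ratio of Omd to Ogn was -4.04, -3.81 and -4.7 with MIZ against -5.94, -7.89 and -8.26 with vehicle, a difference of 3.18 with no overlap, but Omd is at 1 or 2 counts in each of these 6 libraries. Prelp against Fmod had log2 ratios of 0.66, 0.6 and 0.78 in undifferentiated, 3.81, 2.93 and 2.64 in vehicle and 3.36, 3.13 and 2.0 in MIZ libraries, so that the pair parted with differentiation (2.45 higher with vehicle) and the difference between MIZ and vehicle was within the spread (-0.3, exact permutation p = 0.7). Ecm2 against Aspn was 1.4 higher with vehicle than in undifferentiated cells and -0.62 with MIZ against vehicle, the last with overlapping groups (exact permutation p = 0.4). Aspn against Omd did not separate MIZ from vehicle either (1.09, exact permutation p = 0.5).

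**Figure D4:**
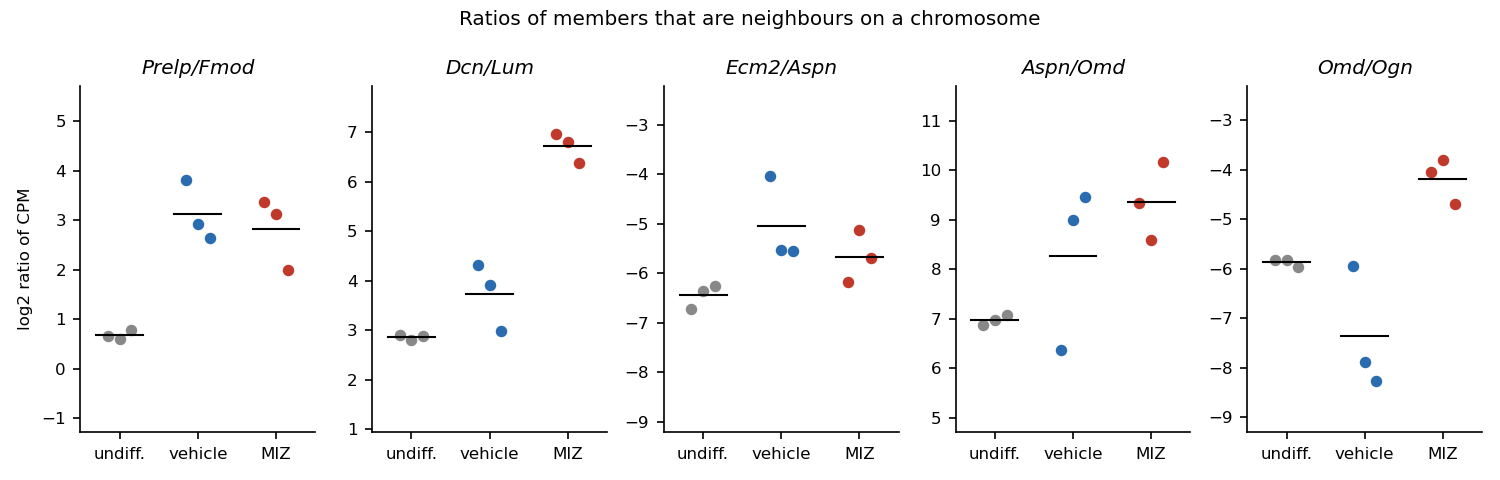
Log2 ratio of the CPM of 2 neighbouring members in each library, with the mean of each group as a line; every axis spans the same number of log2 units. The Dcn/Lum ratio of the MIZ libraries (6.37 to 6.96) lies above all others, and the Prelp/Fmod ratio is lowest in undifferentiated cells (0.6 to 0.78).

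Genes around the members had their own courses. Cenpp, which encloses the chromosome 13 row, averaged 1.9 ± 0.069 CPM before differentiation, 0.605 ± 0.179 after it with vehicle and 0.457 ± 0.0937 after it with MIZ (SD, n = 3), and did not pass between MIZ and vehicle (log2 fold change -0.42, edgeR adjusted p = 0.19). Reads of Aspn and Cenpp can be told apart outside their 7 shared exon bases. Scp2 ran against Podn, with 84.8 ± 1.81, 405 ± 23.9 and 114 ± 7.45 CPM in the same order of groups, and was lower with MIZ than with vehicle (log2 fold change -1.83, SE 0.0602). Gm1627, between Prelp and Fmod, had 29, 4 and 32 counts in all over the undifferentiated, vehicle and MIZ libraries, and was higher with MIZ than with vehicle (log2 fold change 2.92, SE 0.663, edgeR adjusted p = 0.00225).

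The other genes of the family were low here, except Tsku. Tsku (tsukushi), a secreted class IV member and known as a BMP and Wnt modulator, had 32.2, 30.1 and 29.4 CPM in undifferentiated, 91.6, 98.6 and 95.4 in vehicle and 104, 96.8 and 89.7 in MIZ libraries. It was 3.12-fold higher with vehicle than in undifferentiated cells (log2 fold change 1.64, SE 0.0625), opposite to all 10 members, and its groups overlapped between MIZ and vehicle (log2 fold change 0.02, SE 0.0601, edgeR adjusted p = 0.727). Chadl had 4.84 ± 0.336, 2.83 ± 0.112 and 2.17 ± 0.707 CPM and was lower than in undifferentiated cells in both differentiated groups. Podnl1 (1.55 ± 0.338, 0.572 ± 0.107 and 0.6 ± 0.219 CPM) and Optc (1.02 ± 0.148, 0.528 ± 0.237 and 0.462 ± 0.146 CPM) also fell in both, and none of these 3 passed between MIZ and vehicle. Kera, best known from the cornea, had 31 counts in the undifferentiated libraries and 0 in the 6 others, which puts it at least 8-fold higher in undifferentiated cells than in either group, against a floor of 3 counts over the group. Epyc had 76 counts in undifferentiated cells, 1 with vehicle (a ratio of 61.1, 95% counting interval from 10.6 to 2444) and 0 with MIZ (at least 19-fold, against the same floor). Kera and Epyc passed the filter on low counts only through the undifferentiated libraries. Nyx had 9, 29 and 5 counts in the 3 groups, 19 of the 29 in 1 vehicle library, and was lower with MIZ than with vehicle (log2 fold change -2.39, SE 0.707, edgeR adjusted p = 0.0108). Chad had 1 count in all and was not tested.

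The enzymes that build the sugar chains of these proteins are shared by all chondroitin sulfate proteoglycans. The first 4 sugars, the linker, are made by enzymes of which 3 of 7 were higher and 2 lower with MIZ than with vehicle. These shares were near those of all genes tested, 35.9% higher and 35.1% lower. The median log2 fold change was 0.10, against 0.02 for all genes. With library totals only, 5 were higher and 1 lower (median 0.24, against 0.16 for all genes). Under that scaling 7281 of the 17173 genes tested were higher and 5115 lower. In the main fit the changes of the linker enzymes were small, from -0.52 for B3gat3, the glucuronyltransferase that completes the linker, to 0.71 for Pxylp1, the xylose phosphatase. Of the 16 genes that extend, epimerize and sulfate chondroitin and dermatan chains, 13 were higher and 3 lower with MIZ than with vehicle (median 1.37). With vehicle against undifferentiated cells, 12 were lower and 4 higher (median -1.04), where 41.5% of all genes tested were lower and 36.2% higher. Csgalnact1, which starts the chondroitin chain, averaged 162 ± 5.76 CPM before differentiation, 27.9 ± 3.01 after it with vehicle and 210 ± 9.62 after it with MIZ (SD, n = 3; log2 fold change of MIZ against vehicle 2.91, SE 0.0742, edgeR adjusted p = 9.02e-11). Chsy1, a chain polymerase (1.63, SE 0.0603), and Chpf2, its partner (1.48, SE 0.0449), were also higher with MIZ than with vehicle on the log2 scale. Chst15, which adds a further sulfate to N-acetylgalactosamine, ran the other way, with 10.4 ± 0.806, 79.0 ± 5.19 and 17.2 ± 1.35 CPM (log2 fold change of MIZ against vehicle -2.19, SE 0.0784). Dse and Dsel, the epimerases that turn chondroitin into the dermatan sulfate typical of Dcn and Bgn, had log2 fold changes of 0.52 and 1.46 between MIZ and vehicle, both past the threshold.

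Of 6 tested keratan sulfate enzymes, which serve Lum, Fmod and Omd, 2 were higher and 0 lower with MIZ than with vehicle (median 0.01), a share of rises near that of all genes (35.9%). With vehicle against undifferentiated cells, 4 were lower and 1 higher (median -1.11), where 41.5% of all genes tested were lower and 36.2% higher. The 2 that were higher with MIZ than with vehicle were Chst2, a sulfotransferase, with 15.3 ± 1.69, 6.25 ± 1.04 and 31.3 ± 4.81 CPM in undifferentiated, vehicle and MIZ libraries (log2 fold change of MIZ against vehicle 2.34, SE 0.144), and the galactosyltransferase B4galt4 (1.93, SE 0.108). The supply of sulfate and nucleotide sugars had 7 of 12 genes higher and 2 lower with MIZ than with vehicle (median 0.21). Of all genes tested, 35.9% were higher and 35.1% lower. In this list Impad1, which clears a by-product of sulfation, was at 0.53 (SE 0.0435). Tpst1, which sulfates tyrosines found in Fmod and Omd, was at 0.75 (SE 0.109). Slc35b2, a carrier of the sulfate donor, was at 0.48 (SE 0.0643) and Papss1, which makes that donor, at -0.50 (SE 0.0579).

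The lists of matrix partners are to be read beside the 35.9% of all genes that were higher and the 35.1% that were lower with MIZ than with vehicle. With vehicle against undifferentiated cells, 41.5% of all genes were lower and 36.2% higher. Of 11 genes for proteases known to process SLRPs, and their enhancer Pcolce, 7 were higher and 2 lower with MIZ than with vehicle (median 0.76). Bmp1, the protease that matures the Bgn propeptide, averaged 237 ± 7.83 CPM before differentiation, 65.3 ± 3.22 after it with vehicle and 455 ± 11.7 after it with MIZ (log2 fold change of MIZ against vehicle 2.8, SE 0.0523, edgeR adjusted p = 2.43e-11). Its relative Tll1 (2.17, SE 0.139) and Pcolce (1.58, SE 0.1) were higher too, and Mmp3 (stromelysin) was lower (-2.55, SE 0.348). Of 12 collagen chains that bind or line up with SLRPs, 7 were higher and 5 lower with MIZ than with vehicle (median 0.85), and 8 were lower and 4 higher with vehicle than in undifferentiated cells (median -1.63). Col11a1 (log2 fold change of MIZ against vehicle 4.15, SE 0.0711), Col12a1 (2.54, SE 0.123) and Col5a2 (1.88, SE 0.0745) were higher with MIZ, and Col5a3 was lower (-1.84, SE 0.118). All 8 genes of crosslinking enzymes and elastic fibre partners were lower with vehicle than in undifferentiated cells (median -1.72), and 7 were higher with MIZ than with vehicle (median 1.78), the exception being Eln (elastin), which was lower. Lox, the main collagen crosslinker, had 2548 ± 105, 866 ± 150 and 3841 ± 230 CPM in undifferentiated, vehicle and MIZ libraries, so that it exceeded its undifferentiated level with MIZ, as Bgn did. Loxl3 (log2 fold change of MIZ against vehicle 3.83, SE 0.151), Fbn1 (2.23, SE 0.0611) and Loxl2 (1.97, SE 0.053) were the others with the greatest change in this list.

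Of 20 tested genes for growth factors and receptors that SLRPs bind, 12 were higher and 5 lower with MIZ than with vehicle (median 0.64). The shares of all genes tested were 35.9% and 35.1%. Tgfb3, a TGFβ ligand, averaged 104 ± 7.77 CPM before differentiation, 7.17 ± 2.19 after it with vehicle and 152 ± 15.8 after it with MIZ (log2 fold change of MIZ against vehicle 4.37, SE 0.17, edgeR adjusted p = 1.79e-09). Ccn2 (6.19, SE 0.197) and Ccn4 (4.97, SE 0.127), matricellular proteins known to bind Dcn or Bgn, rose more, and Met, a receptor bound by Dcn, was lower with MIZ than with vehicle (-2.53, SE 0.106).

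**Figure D5:**
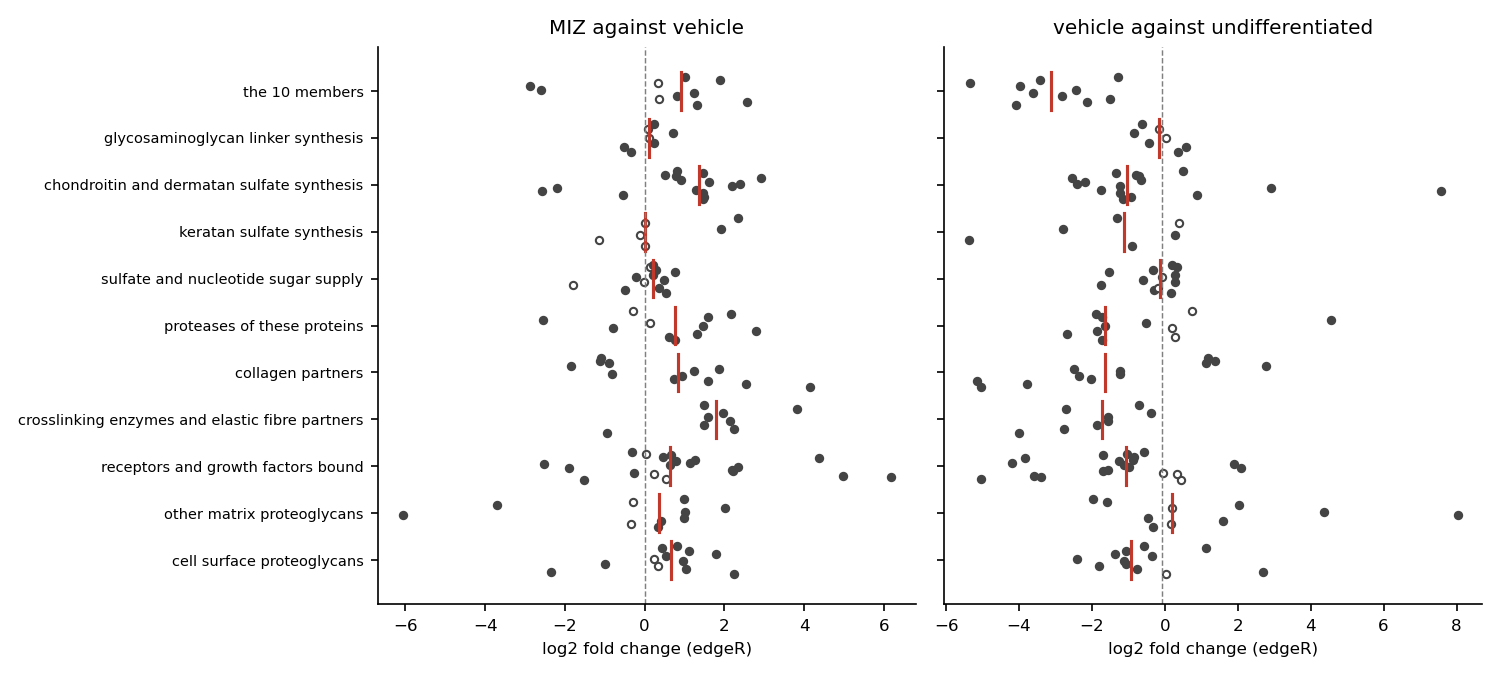
Log2 fold changes (edgeR) of every tested gene of the 10 members and of 10 lists of related genes, with MIZ against vehicle on the left and vehicle against undifferentiated cells on the right; filled points passed an adjusted p of 0.05, red lines are medians of a list and the dashed line is the median of all genes tested. On the left the medians run from 0.01 (keratan sulfate synthesis) to 1.78 (crosslinking enzymes), and on the right the 10 members have the lowest median (-3.13).

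The genes outside the family whose pattern over the 9 libraries came nearest to each member were found among 11766 genes with at least 5 CPM in a group, by the root mean square difference of centred log2 CPM. For Bgn these were Col4a5 (0.08 log2 units) and Pdgfrb (0.09), with means of 99.1, 23.1 and 149 CPM and of 376, 81.0 and 522 CPM in undifferentiated, vehicle and MIZ libraries. Prelp was nearest to Fam102a (0.09) and Pitpnc1 (0.1), Podn to Mdfi (0.12) and Arhgap28 (0.12), and Dcn to Lgals9 (0.14) and Casp12 (0.16). Kntc1, a mitotic checkpoint gene, was among the 2 nearest genes of both Fmod (0.19) and Aspn (0.18), beside Clspn (0.15) for Fmod and Troap (0.19) for Aspn. Lum was nearest to Syngr1 (0.26) and Anpep (0.27), and Ogn to Gpr160 (0.34) and Cd28 (0.37). Omd came nearest to Adam22 (0.24) and Wdfy4 (0.24) and Ecm2 to Tnfrsf21 (0.21) and Brip1 (0.22). All of these libraries share their group structure and depth, and the distances are descriptions.

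Markers of cell types also differed between the groups, in directions that varied from list to list, and their part in the results above was not tested. The 8 adipocyte markers summed to 706 to 797 CPM in undifferentiated, 19026 to 20194 in vehicle and 2158 to 2449 in MIZ libraries, with 4, 7 and 7 genes above 1 CPM, and Cidec and Lep at 0 counts in undifferentiated cells. The 7 preadipocyte markers summed to 988 to 1076, 282 to 370 and 841 to 978 CPM, with 6, 5 and 4 genes above 1 CPM. Between MIZ and vehicle 3 were higher, 1 was lower and 3 did not pass, where 35.9% of all genes tested were higher and 35.1% lower. Against undifferentiated cells 5 of the 7 were lower with MIZ and 1 was higher, where 33.3% of all genes were lower and 33.7% higher. Thy1, a stromal surface marker, was higher with MIZ than with vehicle (log2 fold change 3.14, SE 0.208), as was Pdgfra (1.25, SE 0.113), whereas Cd34 was lower (-1.02, SE 0.214). The 6 contractile markers, all above 1 CPM in each group, summed to 806 to 954, 83.8 to 118 and 7308 to 9599 CPM. All 6 were higher with MIZ than with vehicle (median log2 fold change 6.80), where 35.9% of all genes tested were higher. The 9 markers of cartilage, bone and tendon summed to 85.4 to 94.8, 23.6 to 27.2 and 73.3 to 83.5 CPM, with 5, 2 and 5 genes above 1 CPM and Ibsp at 0 counts in every library.

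The 6 immune markers summed to 3431 to 3539 CPM in undifferentiated, 399 to 744 in vehicle and 846 to 1171 in MIZ libraries, with 5 genes above 1 CPM in each group and Cd3e at 0 counts throughout. Between MIZ and vehicle, Lyz2 (log2 fold change 1.32, SE 0.255) and Adgre1 (1.07, SE 0.212) were higher, and Ptprc (-0.13), Cd68 (-0.21) and Csf1r (-0.31) did not pass, so that the median of the 5 tested was -0.13. Lyz2, a macrophage lysozyme, had 298 CPM in vehicle replicate 1 against 134 and 148 in the other two, and this is the library that was highest for Dcn and lowest for Aspn and Fmod. The 6 endothelial markers summed to 79.1 to 101, 8.43 to 10.3 and 5.02 to 5.41 CPM, with 4, 2 and 2 genes above 1 CPM. Between MIZ and vehicle 3 of the 5 tested were lower (Tek, Vwf and Kdr), where 35.1% of all genes tested were lower. Pecam1 (log2 fold change 0.69) and Cdh5 (0.44) did not pass. The 5 mesothelial markers summed to 3.32 to 3.45, 12.5 to 16.6 and 10.1 to 11.7 CPM, with 1 gene above 1 CPM in each group. The 6 proliferation markers, all above 1 CPM in each group, summed to 467 to 503, 52.6 to 64.6 and 63.6 to 97.8 CPM. Between MIZ and vehicle 3 of the 6 were higher and 3 did not pass (median log2 fold change 0.55), where 35.9% of all genes tested were higher. Without vehicle replicate 1, 2 of the 6 were higher, where 6168 of the 17173 genes tested were higher. Top2a was among the 3 (log2 fold change 0.75, SE 0.217, edgeR adjusted p = 0.00941). Mki67, at 15.6, 15.3 and 30.6 CPM with MIZ, was highest in the replicate in which Fmod and Aspn were highest.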

How the data were processed

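RNAseq was performed on 9 libraries, 3 per group. By the study's methods and labels, the authors depleted ribosomal RNA, enriched mRNA by poly-A selection and sequenced paired reads. They trimmed the reads with Trim Galore 0.6.7, aligned them with STAR to GRCm38 (mm10) and deposited raw counts per gene, with no normalization. The methods name STAR's own counting and the labels HTSeq. The annotation release and the strand setting are not given in the sources used here, so reads of overlapping genes on opposite strands may be mixed. Library totals ran from 28760721 to 55288455 counts.

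The deposited counts were tested with edgeR 4.0.16 (R 4.3.3). Genes needed 5 or more counts in 3 or more libraries (17173 genes passed, with 99.99% of counts), normalization was by TMM, and 1 quasi-likelihood model was fitted to all 9 libraries, with Benjamini-Hochberg adjustment over all genes tested and a threshold of 0.05. CPM uses the TMM library sizes, and RPKM divides CPM by the exon bases of GENCODE release M21 (GRCm38), which may differ from the authors' annotation. Standard errors (SE) were derived from edgeR's log2 fold change and F statistic, as its test reports none. The 95% intervals use these derived standard errors with 6 residual degrees of freedom, while the p-values come from edgeR's own test. Single sums and ratios were tested with exact two-sided permutation tests in scipy 1.17.1. Ratios used CPM with no prior count. Genes nearest in pattern were sought on log2 CPM, adding a prior count of 2. Intervals and floors of counts cover counting error only. DESeq2 1.42.0, other normalizations and filters, a replicate block, a fit of only the 6 libraries compared, fits without mitochondrial genes and fits without each library were tried as alternatives, and the edgeR script was tested on simulated data.

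The members were given by name, and they and the lists (linker, chondroitin and dermatan sulfate, keratan sulfate and sulfate supply genes, proteases, collagens, crosslinking, receptors, other matrix and cell surface proteoglycans, and markers) were chosen with earlier results of these data known. Of each list, up to 4 genes are named, those with the largest change between MIZ and vehicle that passed, had at least 5 CPM in a group and had no overlap between libraries. Dse, Dsel, Eln, Mki67, Pecam1, Cdh5, Ptprc, Cd68, Csf1r, Cidec, Lep, Ibsp, Col2a1, Sp7, Bglap, Cd3e, Ncan, Spock1 and Adipoq were named in addition. For each member the 2 nearest genes are named. The labels call the replicates biological, and p-values measure the spread between these libraries. Promoter windows are RefSeq sequences. Figures were drawn with matplotlib 3.10.9 (Python 3.11.15).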

Additional observations from a re-analysis of the deposited data

How the results depend on the processing

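Of 540 refits of the members' log2 fold changes (30 values under 18 settings), 530 kept their direction and their side of the threshold, 5 lost the call and 5 gained it, and 0 reversed. The changes concern Dcn and Ecm2 between MIZ and vehicle and Prelp between MIZ and undifferentiated cells. Dcn passed with library totals only (0.5, edgeR adjusted p = 0.0409) and Ecm2 missed the threshold with only the 6 libraries compared (0.82, edgeR adjusted p = 0.0521). Prelp passed with no low-count filter (-0.27, edgeR adjusted p = 0.0441). Scaling by library totals moved the median of all genes to 0.16 between MIZ and vehicle and to -0.25 between vehicle and undifferentiated cells, without turning any member. Among the lists it raised the sulfate supply genes higher with MIZ than with vehicle from 7 to 9 of 12. The linker genes went from 3 to 5 of 7. With that scaling 7281 of the 17173 genes tested were higher and 5115 lower. Receptors and growth factors lower with MIZ went from 5 to 3 of 20, and proliferation markers higher with MIZ from 3 to 4 of 6. Keratan sulfate genes higher with vehicle than in undifferentiated cells went from 1 to 0 of 6. Without vehicle replicate 1, receptors and growth factors higher with MIZ went from 12 to 14 of 20, where 6168 of all genes tested were higher. The counts of members called stayed within 1.5 times under every setting, and DESeq2 gave the same calls for all members. Deviations of same-numbered libraries correlated from -0.0447 to 0.063, and those of differently numbered libraries from -0.0544 to 0.0681. No pairing by replicate number was seen, but with 3 libraries a group these values cannot exclude a shared animal. With the replicate block, 7 members were higher and 2 lower between MIZ and vehicle, the added one being Dcn (0.39, edgeR adjusted p = 0.0316). In that fit 6093 of the 17173 genes tested were higher and 5927 lower. Of the ratios of neighbours, Prelp to Fmod between MIZ and vehicle changed sign, to 0.05 without vehicle replicate 1 and 0.12 without MIZ replicate 3, and over all replicates left out it ranged from -0.56 to 0.12. The other ratios and the summed levels kept their sign under every setting tried, the prior count of 0.5 included. Depth limits Omd, Ecm2, Kera, Epyc, Nyx and, with MIZ, Ogn, which rest on few counts. RNA levels do not show protein or its sugar chains, and 3 libraries a group leave single-value tests at a p of 0.1 or more.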

Other observations

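Proteoglycans outside the leucine-rich family also differed between the groups. Of 10 tested matrix proteoglycans of other families, 6 were higher and 2 lower with MIZ than with vehicle (edgeR, median log2 fold change 0.37). Of all genes tested, 35.9% were higher and 35.1% lower. Vcan (versican), a large hyaluronan-binding proteoglycan, averaged 1436 ± 97.2 CPM before differentiation, 365 ± 11.5 after it with vehicle and 720 ± 45.0 after it with MIZ (SD, n = 3), and Hspg2 (perlecan), of basement membranes, had 2117 ± 37.1, 1535 ± 58.5 and 3020 ± 128 CPM. Both were higher with MIZ than with vehicle by 0.98 on the log2 scale. Prg4 (lubricin), the joint lubricant, averaged 1.47 ± 0.323 CPM before differentiation, 31.0 ± 10.2 after it with vehicle and 61.8 ± 4.2 after it with MIZ, and was higher than in undifferentiated cells in both differentiated groups (log2 fold changes 4.36 and 5.37). Spock2 (testican) was lower with MIZ than with vehicle (log2 fold change -3.71, SE 0.392).

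Of 12 tested cell surface proteoglycans, 8 were higher and 2 lower with MIZ than with vehicle (edgeR, median log2 fold change 0.67). The shares of all genes tested were 35.9% higher and 35.1% lower. Cd44, the hyaluronan receptor, had 148 ± 6.03 and 151 ± 52.1 CPM in undifferentiated and vehicle libraries and 714 ± 67.8 with MIZ. Sdc2 (log2 fold change of MIZ against vehicle 1.79, SE 0.0466) and Sdc3 (1.12, SE 0.0589), both syndecans, were higher, and Cspg4 (NG2), a pericyte proteoglycan, was lower, with 9.7 ± 0.926, 63.3 ± 5.34 and 12.5 ± 5.05 CPM in undifferentiated, vehicle and MIZ libraries (log2 fold change -2.35, SE 0.218).

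Of 9 listed markers of cartilage, bone and tendon, 6 were tested, and Col2a1, Sp7 and Ibsp were too low to test. All 6 were higher with MIZ than with vehicle (edgeR, median log2 fold change 2.78), where 35.9% of all genes tested were higher. Without vehicle replicate 1, 5 of the 6 were higher, where 6168 of the 17173 genes tested were higher. Bglap among them averaged only 0.0514 CPM with vehicle and 0.181 with MIZ, and 0.0416 before differentiation. At these levels Bglap could not pass the filter on low counts without its MIZ libraries, so its call is no separate support for a rise. The count of 6 and the median include Bglap. Sox9, the master transcription factor of chondrocytes, averaged 48.3 ± 3.97 CPM before differentiation, 8.2 ± 2.57 after it with vehicle and 26.4 ± 1.83 after it with MIZ, and Runx2, its counterpart in bone, had 32.6 ± 0.934, 16.2 ± 1.14 and 46.1 ± 4.95. Tnmd (tenomodulin), of tendon, had 6.24 ± 0.232, 0.0393 ± 0.0376 and 1.35 ± 0.384 CPM.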
